A study of Mus musculus with 15 samples.

Results

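The Hox genes were examined as a group in whole-aorta RNA-Seq of 15 male mice. Every gene symbol of the count files made of Hox, a cluster letter from a to d and a number was taken as a member, which gave 39 of 24982 symbols. All mice were C57BL/6, WT and 10 months old. All underwent surgery, recovered for 2 weeks, and then received aldosterone at 200 µg/kg/d by minipump with 0.9% NaCl and 0.2% KCl in the drinking water (Aldo-salt) until day 7. The 5 control mice were sham operated, 5 mice had an orchiectomy, which removes the main source of androgen, and 5 had an orchiectomy and a pellet of the androgen dihydrotestosterone (DHT). No group was spared Aldo-salt, so the effect of Aldo-salt itself could not be read from these samples.

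Hox genes encode homeodomain transcription factors and lie in 4 clusters, HoxA to HoxD. Their paralog number follows their order along the cluster: genes with low numbers, at the 3′ end, are used from the hindbrain and neck backwards, whereas genes with high numbers, at the 5′ end, are used progressively nearer to the tail. Smooth muscle cells and fibroblasts of adult vessels keep much of the combination set up in the embryo, so that the thoracic and the abdominal aorta carry different Hox profiles. Each library here came from a whole aorta, and position along the vessel was not recorded.

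Libraries held 8268957 to 13816864 reads assigned to genes, of which 2740 to 5143, or 0.0256% to 0.0435%, came from Hox genes. The labelled tissue matched its defining markers: Acta2, the smooth muscle actin, was at 3684 to 8067 CPM (read counts scaled to a common library size), and Myh11, the smooth muscle myosin heavy chain, at 2154 to 7227 CPM. The library of orchiectomized replicate 2 stood apart, with summed levels of heart muscle, lung and mesothelium markers of 7729, 5694 and 647.0 CPM, against at most 1579, 29.5 and 88.3 CPM in the other libraries. Values without this library stand beside results that it changed.

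The aortas expressed Hox genes of paralog groups 1 to 10, with little beyond. Of the 30 members with numbers 1 to 10, 27 had enough reads to be tested, whereas 1 of the 9 with numbers 11 to 13, Hoxa11, did. A gene was tested when it passed a filter at a minimum count of 10, and 28 Hox genes and 14121 genes in all passed. The 11 members left out were Hoxa13, Hoxb1, Hoxb13, Hoxc11, Hoxc12, Hoxc13, Hoxd1, Hoxd10, Hoxd11, Hoxd12 and Hoxd13. None of these exceeded 6 reads in any library, and Hoxd1 and Hoxd12 had no read in any of the 15. A count of 0 allows a level of up to 3 counts, or 0.206 to 0.385 CPM depending on the library, for counting error only.

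Levels between genes were compared as CPM per kilobase of exon, in the order of paralog number. In the HoxA cluster on chromosome 6, the level was 13.01 ± 2.61 (SD, n = 5) CPM per kb in controls for Hoxa3 and 18.7 ± 4.77 for Hoxa5, and was lower at 5.55 ± 1.51 for Hoxa7, 3.76 ± 1.41 for Hoxa10 and 0.654 ± 0.416 for Hoxa11. Hoxa5, which is needed for the identity of cervical and upper thoracic segments, had the highest mean level per kilobase of all 39 members over the 15 libraries, followed by Hoxa3, a regulator of the pharyngeal arch arteries. With the exons of all transcripts, coding or not, as the length, Hoxa5 remained first and Hoxa3 was at rank 10. Hoxa6 lay at 2.02 ± 0.632 CPM per kb between 2 neighbours with higher levels. Hoxa5 and Hoxa11 therefore differed far beyond the spread between control mice. The means of Hoxa9 (2.76 ± 1.09) and Hoxa10 lay within that spread, which takes no account of both genes being measured in the same mice.

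HoxB, on chromosome 11, had the most even profile. Control levels of Hoxb2 through Hoxb7 ranged from 6.13 CPM per kb for Hoxb3 to 10.2 for Hoxb2, with 5.02 for Hoxb8 and 2.13 for Hoxb9. Hoxb1, a hindbrain gene, had 1 read in all 15 libraries, and Hoxb13, a gene of the tail end, likewise had 1. HoxC, on chromosome 15, has no genes numbered 1 to 3. Its control levels peaked at Hoxc6 (8.78 ± 1.75) and Hoxc8 (10.1 ± 4.36), genes of the thoracic segments, with Hoxc10, a gene of the lumbar segments, at 4.22 ± 1.84. HoxD, on chromosome 2, was the least expressed cluster, and Hoxd8 was its highest gene at 3.85 ± 1.03 CPM per kb.

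**Figure D1:**
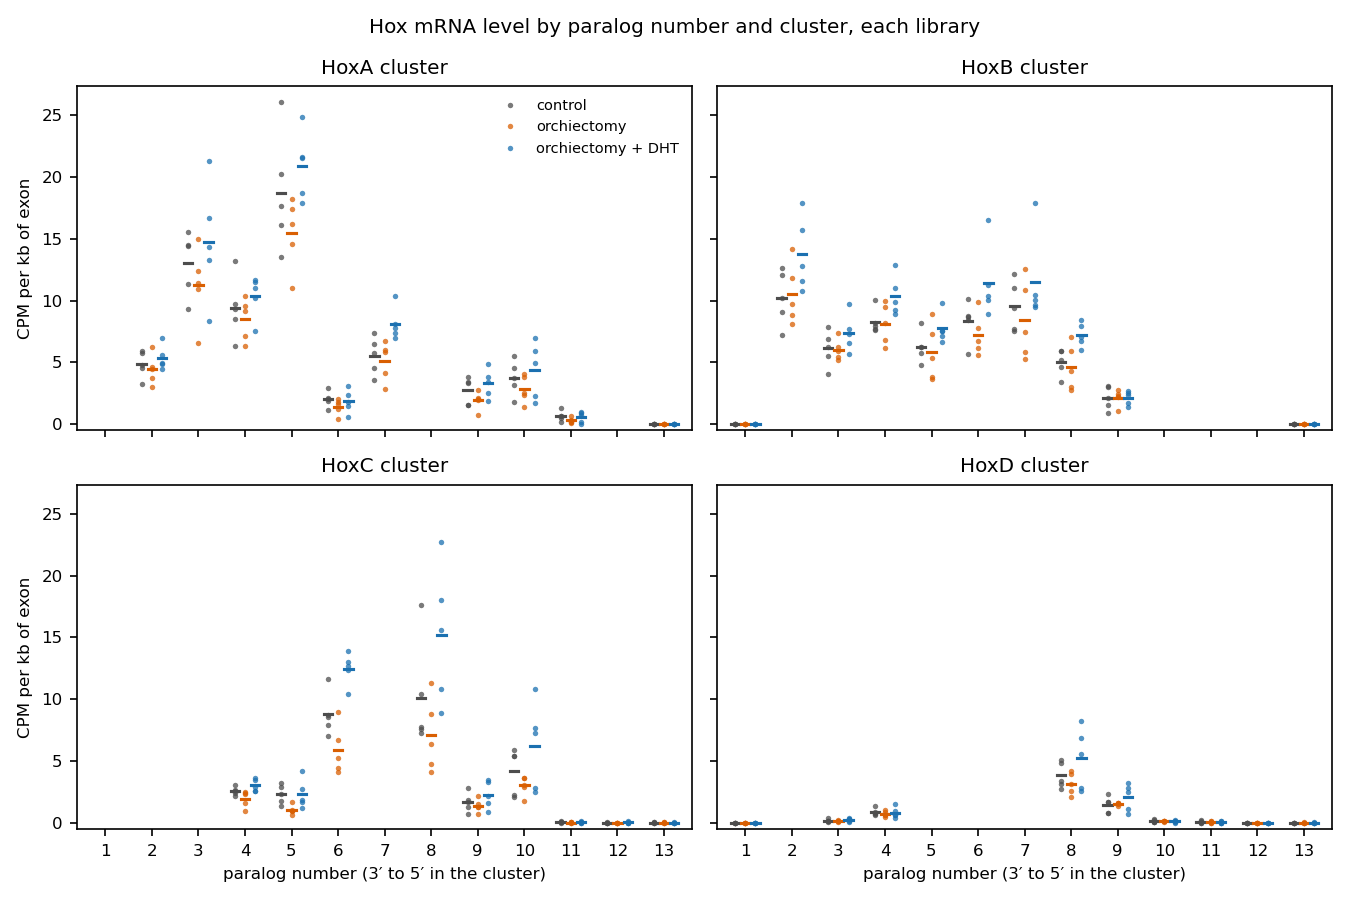
Level of Hox genes in CPM per kb of exon (y axis) against paralog number (x axis) in the 4 clusters, with 1 point per library (5 per group) and a bar at each group mean. With the exons of coding transcripts as the length, levels peak at Hoxa5, Hoxb2, Hoxc8 and Hoxd8 in the control group. They lie near 0 for numbers 11 to 13 in all 3 groups.

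By read counts, HoxA and HoxB together gave most of the Hox signal. In controls, the lowest, median and highest shares of Hox reads were 36.7%, 41.4% and 46.1% for HoxA, 32.6%, 35.5% and 42.4% for HoxB, 13.9%, 17.5% and 24.5% for HoxC, and 3.72%, 4.89% and 6.30% for HoxD. Paralog group 3 held the largest median share in controls, 18.7%, followed by group 5 with 16.6%. Groups 11, 12 and 13 had maxima over all libraries of 0.950%, 0.0287% and 0.182%.

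The position of the profile along the paralog axis was summarised by the mean paralog number weighted by reads. It was 5.47 ± 0.354 in control, 5.32 ± 0.242 in orchiectomized and 5.59 ± 0.391 in DHT-treated orchiectomized mice (SD, n = 5 each). The 3 groups overlapped almost entirely: the lowest and highest values were 4.97 and 5.90 in control, 4.97 and 5.64 in orchiectomized and 5.10 and 5.98 in DHT-treated mice. The group difference was -0.15 for orchiectomized minus control, 0.269 for DHT-treated minus untreated orchiectomized and 0.119 for DHT-treated minus control mice, each smaller than the pooled SD within groups of 0.335. The share of Hox reads from paralog groups 9 to 13, the posterior genes, was 12.9 ± 4.09% in control, 12.1 ± 3.37% in orchiectomized and 12.8 ± 5.27% in DHT-treated mice. On the log2 scale, the ratio of posterior reads to those of groups 1 to 8 differed by -0.0835, 0.0373 and -0.0462 in the same 3 comparisons, against a pooled SD of 0.612. No test was run on these summaries.

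Single mice differed more in this profile than the groups did. The posterior share was 6.70%, 16.8%, 15.1%, 14.996% and 10.9% in control replicates 1 to 5. It was 9.39%, 7.85%, 12.9%, 15.7% and 14.6% in the orchiectomized libraries. With DHT, it was 7.04%, 19.5%, 13.5%, 8.06% and 15.9%. Each group thus held mice with low and with high shares.

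The same contrast appeared as a wider spread of the posterior genes. Within groups, the SD of log2 CPM had a median of 0.317 for the 10 tested genes with numbers 1 to 4, 0.395 for the 11 with numbers 5 to 8 and 0.647 for the 7 with numbers 9 to 13. Posterior genes also had lower levels, with a median log2 CPM of 2.45, but the 1261 genes of all kinds with a log2 CPM of 2 to 3 had a median SD of 0.381. Hoxa10 ranged from 5.31 to 21.9 CPM among DHT-treated mice, and Hoxc10 from 4.70 to 20.6 CPM. In contrast, Hoxb4 ranged from 23.0 to 33.1 CPM and Hoxc6 from 16.4 to 21.9 CPM in the same mice.

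**Figure D2:**
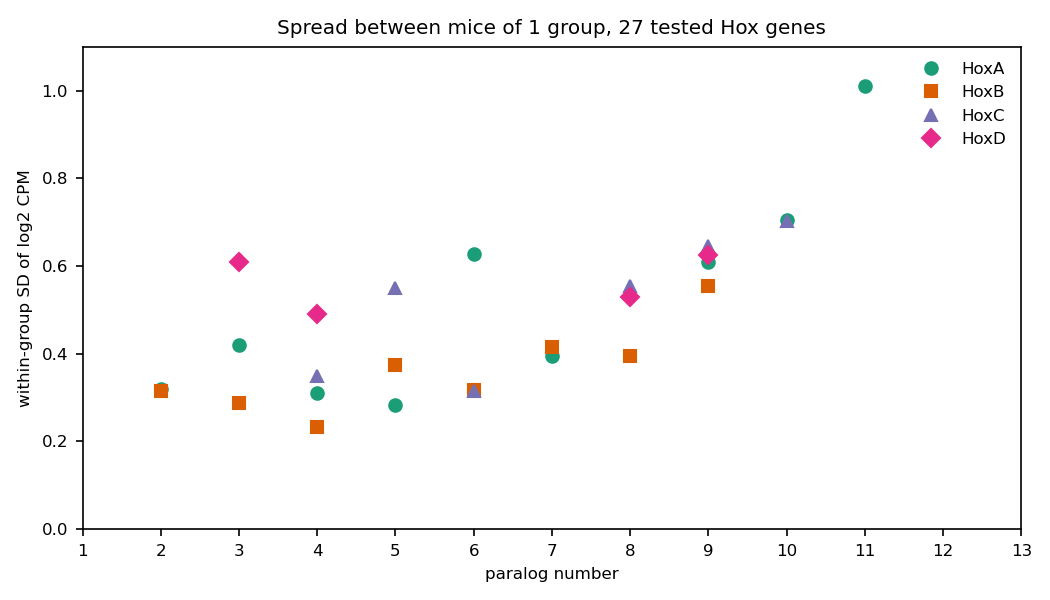
Standard deviation of log2 CPM within groups (y axis) against paralog number (x axis) for 27 tested Hox genes, with 1 symbol per gene and the shape giving the cluster. The 7 genes with numbers 9 to 13 lie between 0.555 and 1.01, above most genes with lower numbers.

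Mice with little posterior signal in HoxA also had little in HoxC. Summed over genes 9 to 13, control replicate 1, orchiectomized replicate 2 and DHT-treated replicates 1 and 4 lay well below their group means in both clusters. Control replicate 5 was also below the control mean, with 7.76 CPM over HoxC genes 9 to 13 (mean 12.4). It had 5.11 CPM of Hoxa9 (mean 8.90) and 9.86 CPM of Hoxa10 (mean 11.8). Control replicate 1 had 5.07 CPM of Hoxa9, 5.71 CPM of Hoxa10, 1.81 CPM of Hoxc9, 4.08 CPM of Hoxc10 and 1.72 CPM of Hoxd9, whereas control replicate 2 had 12.4, 17.3, 4.495, 10.3 and 3.65 CPM of the same genes. Control replicate 1 also had the highest summed level of skeletal muscle markers, 513.5 CPM. It was 186.8 CPM in orchiectomized replicate 2, the highest of its group, and 268.1 and 302.1 CPM in DHT-treated replicates 1 and 4. Control replicate 5 and orchiectomized replicate 1, with the next lowest posterior shares (10.9% and 9.39%), had 46.0 and 12.7 CPM. Among the remaining libraries, it was 466.4 CPM in DHT-treated replicate 3, 250.3 CPM in control replicate 4, 192.6 CPM in DHT-treated replicate 5 and 9.35 to 78.5 CPM in the other 6. The part of such markers in the Hox profile of single mice was not tested.

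**Figure D3:**
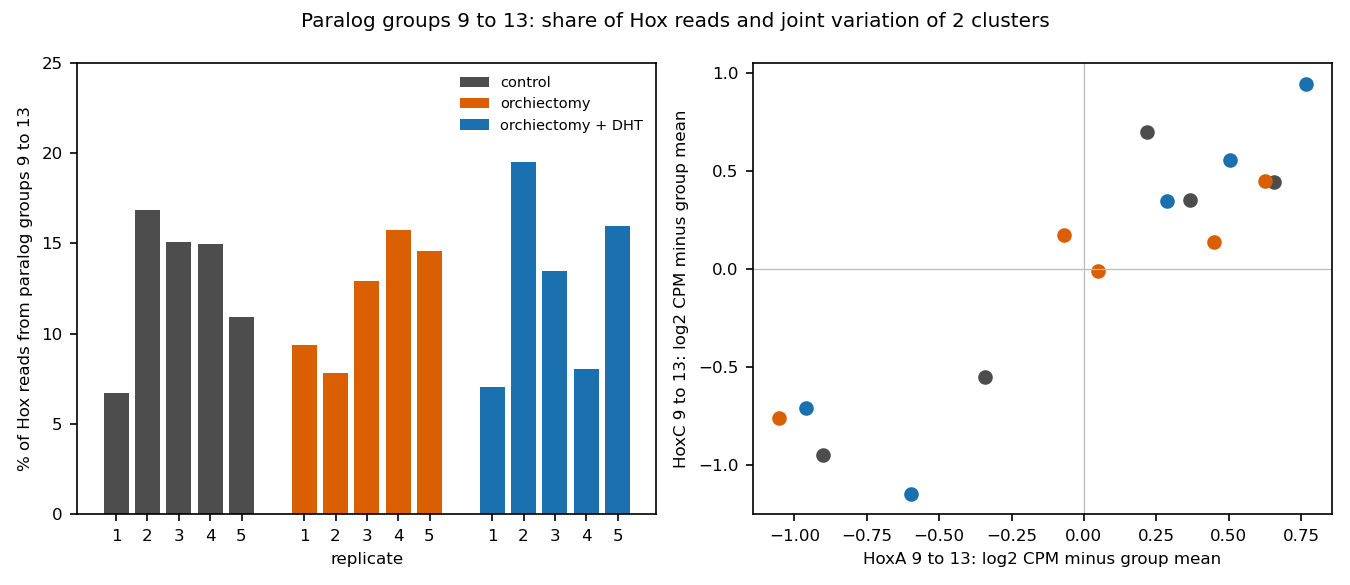
Left, percentage of Hox reads from paralog groups 9 to 13 in each library, with replicates 1 to 5 of each group side by side. Right, summed log2 CPM of HoxC genes 9 to 13 against that of HoxA genes 9 to 13, each minus its group mean, with 1 point per library. Shares run from 6.70% to 19.5%, and libraries low in one cluster are low in the other.

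The effect of androgen deprivation was addressed by comparing orchiectomized with control mice. Hox genes were slightly lower after orchiectomy: 25 of 28 had a log2 fold change below 0, with a median of -0.21 against 0.04 over all genes tested, of which 56.8% lay above 0. The median was -0.14 without orchiectomized replicate 2, with 24 of 28 below 0, and -0.33 without orchiectomized replicate 1. Without control replicate 4, 9 of 28 lay above 0, and with limma voom 10 of 28 did (median -0.10). Summed over all members, the level was 285 ± 46.9 CPM in orchiectomized and 333 ± 33.9 CPM in control mice, and the groups overlapped. A call was an unadjusted P value under 0.01 in edgeR's quasi-likelihood test. It was met by 1 Hox gene, Hoxc5, which was lower. Across all genes tested, 3.22% met it in either direction and 1.13% as lower, so that 1 of 28 is close to the share among all genes called in either direction. DESeq2 called 2 Hox genes (4.46% of all genes) and voom none (3.26% of all genes). Of the markers of other cell types, 7 of 8 lymphocyte markers, 1 of 5 mesothelium markers (Krt8) and the only tested lung marker (Scgb1a1) were called higher after orchiectomy, against 2.08% of all genes. Called lower were 2 of 8 skeletal muscle markers, 1 of 6 brown fat markers (Elovl3) and 1 of 6 white and general fat markers (Lep). Leaving out orchiectomized replicate 2 gave 6 of 8 calls for lymphocytes, 0 of 5 for mesothelium, 4 of 8 for skeletal muscle and 0 of 6 for brown fat, and the calls of Scgb1a1 and Lep held. The summed brown fat level was 1204 to 4560 CPM in control, 1110 to 2195 CPM in orchiectomized and 1547 to 4349 CPM in DHT-treated mice. The part of these markers in the Hox values was not tested.

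Hoxc5 (chr15:102967443-103017429, plus strand) encodes a homeodomain factor of the cervical and upper thoracic segments. Its level was 5.07, 6.84, 9.39, 3.895 and 8.58 CPM in control mice, 2.91, 2.83, 3.15, 1.86 and 5.05 CPM in orchiectomized mice, and 3.59, 4.86, 5.38, 8.02 and 12.2 CPM in DHT-treated mice. Of the orchiectomized libraries, 4 of 5 lay below every control, and replicate 5 lay among them. The log2 fold change from control to orchiectomy was -1.09 ± 0.35 (SE; edgeR adjusted P = 0.2998). Without orchiectomized replicate 2 it was -1.06 (adjusted P = 0.607), and the call was lost. Hoxc5 and Hoxc10 share 166 bp of exon on the same strand in the GENCODE annotation, so that reads of this stretch cannot be assigned to one of them. Hoxc6 had the next smallest P value in this comparison, with a log2 fold change of -0.57 ± 0.20 (adjusted P = 0.325).

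The effect of restoring androgen was addressed by comparing DHT-treated with untreated orchiectomized mice. Hox genes were higher with DHT: 27 of 28 had a log2 fold change above 0, against 46.7% of all genes tested, and the median was 0.54 against -0.02 over all genes. The exception was Hoxb9 at -0.01 ± 0.33. Summed over all members, the level was 415 ± 36.7 CPM with DHT, 1 DHT-treated mouse at 354 CPM lay next to the highest untreated mouse at 353 CPM, and the groups did not overlap. The members share their libraries and are no replicates of each other. They included 4 called genes, all higher: Hoxc6, Hoxc8, Hoxc5 and Hoxb6. Over all genes tested, 9.72% were called in either direction, but only 2.46% as higher.

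The difference between the median of the members and that of all genes was largest in HoxC. All 6 tested HoxC genes were higher with DHT, with log2 fold changes from 0.62 to 1.11 and a median of 1.06, and 3 of them were called. The medians were 0.42 for the 10 HoxA genes, 0.40 for the 8 HoxB genes and 0.56 for the 4 HoxD genes. The difference between clusters was not tested. By paralog number, the 4 calls were all among the 11 genes numbered 5 to 8, whose median was 0.67, against 0.33 for numbers 1 to 4 and 0.70 for numbers 9 to 13, where the standard errors were larger (median 0.40 against 0.20 for numbers 1 to 4).

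Hoxc6 (chr15:102998257-103011881, plus strand), a gene of the thoracic segments, gave the smallest P value of the family, rank 88 of 14121. Its level was 13.8, 13.58, 18.5, 11.1 and 12.5 CPM in control mice. After orchiectomy it was 10.6, 6.46, 7.08, 8.25 and 14.2 CPM, and with DHT it was 16.4, 20.6, 19.6, 20.1 and 21.9 CPM. All 5 DHT-treated mice lay above all 5 untreated orchiectomized mice, and 4 of 5 also lay above every control. The log2 fold change was 1.08 ± 0.20 (adjusted P = 0.0122, edgeR), the only Hox gene under an adjusted P value of 0.05, a limit passed in this direction by 0.921% of all genes tested. Without orchiectomized replicate 2 it was 0.99 ± 0.19 (adjusted P = 0.0183).

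Hoxc8 (chr15:102990607-102994111, plus strand), the neighbour of Hoxc6 toward the 5′ end and the HoxC gene with the most reads, was at 14.1, 19.5, 32.8, 13.598 and 14.5 CPM in control mice. It was at 21.2, 8.94, 11.9, 7.70 and 16.4 CPM after orchiectomy and at 16.7, 29.1, 42.4, 20.2 and 33.6 CPM with DHT. The ranges with and without DHT overlapped, with 3 of 5 treated mice above all untreated mice, and the fold change was 1.105 ± 0.33 on the log2 scale (adjusted P = 0.0713). It was 1.01 (adjusted P = 0.117) without orchiectomized replicate 2 and still called, and the call was lost without orchiectomized replicate 4 (0.99) or DHT-treated replicate 3 (0.93).

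Hoxc5, described above, was higher with DHT by 1.11 ± 0.36 on the log2 scale (adjusted P = 0.0877), and 3 of 5 treated mice lay above all untreated ones. Without orchiectomized replicate 2 the difference was 1.08 (adjusted P = 0.135) and the call was lost, as it was in 6 of 15 fits that left out 1 library (orchiectomized replicates 1 to 4 and DHT-treated replicates 4 and 5) and with voom. Both Hoxc5 calls use the same 5 orchiectomized libraries, so they are not independent of each other.

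Hoxb6 (chr11:96292476-96301569, plus strand), a further gene of the thoracic segments, was at 16.6, 17.0, 17.2, 19.8 and 11.2 CPM in control mice. It was at 19.5, 12.0, 13.2, 10.9 and 15.2 CPM after orchiectomy and at 32.4, 19.7, 22.2, 20.4 and 17.6 CPM with DHT. Of the treated mice, 4 of 5 lay above all untreated orchiectomized mice, and replicate 1 was the highest. The log2 fold change was 0.67 ± 0.20 (adjusted P = 0.0670). Without that highest replicate it was 0.50 and the call was lost. Leaving out orchiectomized replicate 2 instead gave 0.63 (adjusted P = 0.109), still called.

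Several other members were close to the threshold. Hoxa7, another thoracic gene, was at 18.8, 7.88, 16.9, 11.6 and 16.4 CPM after orchiectomy and at 29.1, 20.7, 19.6, 22.6 and 21.7 CPM with DHT. The groups did not overlap, with a log2 fold change of 0.67 ± 0.23 (adjusted P = 0.108). Hoxc4 at the 3′ end of HoxC also did not overlap, at 2.54 to 6.35 against 6.54 to 9.41 CPM (0.62 ± 0.23, adjusted P = 0.124). In the fit without orchiectomized replicate 2, Hoxc4 (0.72 ± 0.23, adjusted P = 0.109) and Hoxb5 (0.65 ± 0.20, adjusted P = 0.100, from 0.42 ± 0.23) were called higher, and Hoxc4 was also called by DESeq2 and voom. In all, 12 of 28 Hox genes had P values under 0.05, all higher with DHT, and 5 of them were in HoxC. Of the 14121 genes tested, 2994 had such a P value, 1034 of them higher with DHT.

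None of the genes at the ends of the clusters described here was called by edgeR with all 15 libraries. Hoxb2 was at 13.2 to 23.0 without and 17.5 to 29.2 CPM with DHT (0.39 ± 0.19, adjusted P = 0.263). Hoxa11, the most 5′ of the tested HoxA genes, was at 0.431, 0.442, 0.262, 1.58 and 0.814 CPM without DHT, and at 0, 1.98, 1.79, 0.494 and 2.17 CPM with it (0.82 ± 0.75, adjusted P = 0.569). Hoxb9 was at 2.65 to 7.08 and 3.52 to 6.93 CPM, with no difference beyond the spread. Hoxc10 was at 3.45 to 7.00 without and 4.70 to 20.6 CPM with DHT, with a log2 fold change of 1.03 ± 0.41 (adjusted P = 0.159). It was called higher in the fits without DHT-treated replicate 1 and without DHT-treated replicate 4 (8.52% and 7.49% of all genes called). Hoxd3 stayed between 0.171 and 1.55 CPM in both groups, and Hoxd9 was at 2.91 to 3.497 against 1.54 to 6.93 CPM (0.42 ± 0.39, adjusted P = 0.575).

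The genes with the most reads in the other clusters were not called with all 15 libraries. Hoxa3 was at 17.4 to 39.7 CPM without and 22.2 to 56.4 CPM with DHT (0.39 ± 0.24, adjusted P = 0.364). Hoxb3 was at 20.1 to 28.6 and 22.2 to 37.7 CPM (0.30 ± 0.17, adjusted P = 0.336). Hoxd8 was at 5.84 to 11.4 and 7.10 to 22.6 CPM (0.71 ± 0.31, adjusted P = 0.206), and was called in the fit without DHT-treated replicate 1.

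**Figure D4:**
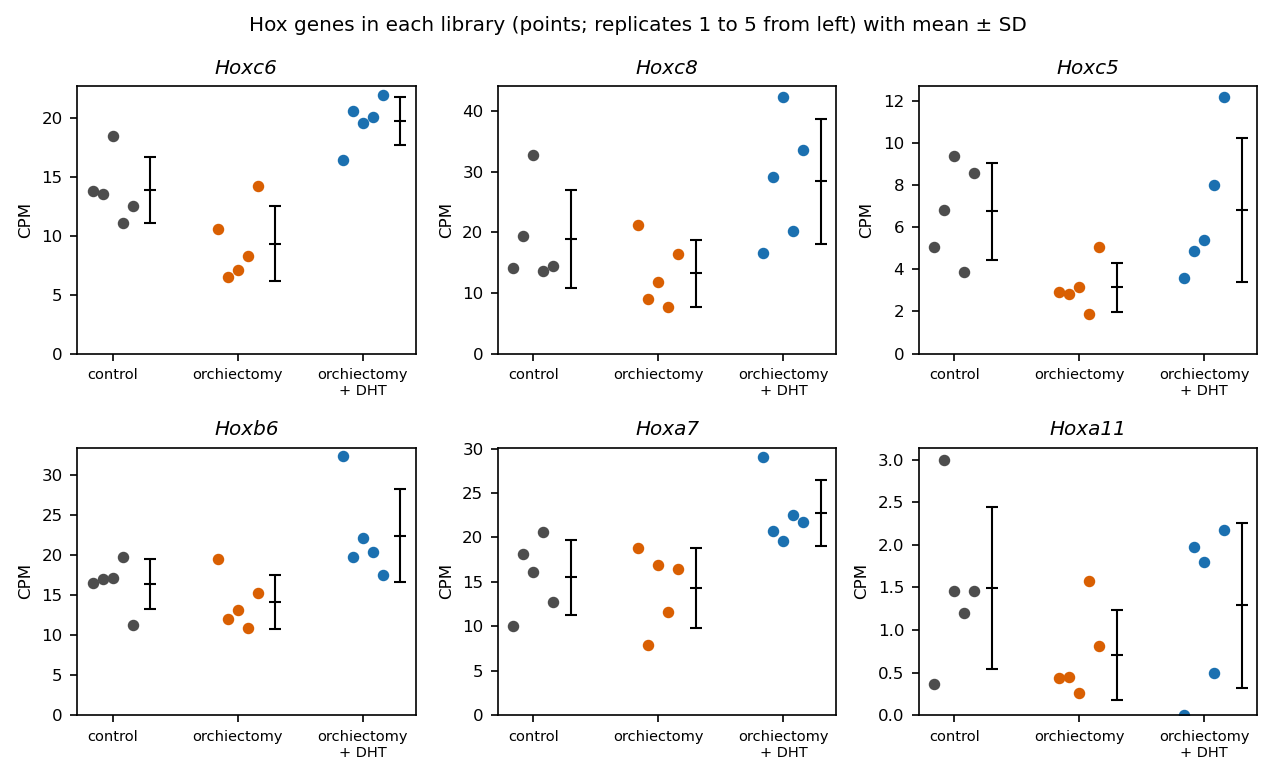
CPM of 6 Hox genes in each library (points, 5 mice per group, replicates 1 to 5 from left) with the mean and SD of each group beside them. All 5 DHT-treated mice exceed all 5 orchiectomized mice for Hoxc6 and Hoxa7, while the Hoxa11 points overlap across the 3 groups.

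Markers of other cell types also differed in this comparison, some in the direction of the Hox genes and others in the opposite one. The summed level of 8 smooth muscle markers was 20145 to 25023 CPM with DHT and 11204 to 20700 CPM without, or 14325 to 20700 CPM without orchiectomized replicate 2. No smooth muscle marker of the 8 was called by edgeR, although 5 had an unadjusted P value under 0.05, and their median log2 fold change was 0.43. Without that library, 1 marker, Des (desmin, also a protein of heart and skeletal muscle), was called higher. The 8 skeletal muscle markers summed to 9.35 to 186.8 CPM without and 78.5 to 466.4 CPM with DHT, and 4 were called higher, or 6 without that library. The 7 fibroblast markers had a median of -0.67 with 3 called lower (4 without that library), the 7 endothelial markers -0.37 with 3 called lower, and all 5 mesothelium markers and all 8 lymphocyte markers were called lower, against 7.27% of all genes. Also called lower were 1 of 6 brown fat markers (Dio2), 1 of 3 kidney markers (Lrp2) and the only tested lung marker (Scgb1a1), all 3 with and without that library. The brown fat list had a median above 0, at 0.50 (Elovl3 1.33, Ucp1 0.82, Cidea 0.60, Cox8b 0.41, Ppargc1a -0.12, Dio2 -0.97). The other kidney markers were at -0.51 (Slc34a1) and 0.03 (Aqp2). The 9 heart muscle markers had a median of -1.47, or 2.28 without that library, and none was called. The part of these markers in the Hox differences was not tested. In tissue RNA, fewer cells of a type and less RNA per cell cannot be told apart.

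Expressed per 1000 CPM of the 8 smooth muscle markers, the summed Hox level did not separate the groups. It was 19.5 ± 2.03 in control, 17.7 ± 2.42 in orchiectomized and 18.6 ± 1.27 in DHT-treated mice (SD, n = 5). The untreated mice other than orchiectomized replicate 2 ranged from 15.15 to 17.74 with a mean of 16.7, against 17.31 to 20.6 with DHT and 17.3 to 22.8 in control, so that the ranges overlapped only at their edges. Hoxc6 on the same scale was 0.411 to 0.761 after orchiectomy and 0.691 to 1.09 with DHT, with means of 0.567 and 0.896. For the HoxC cluster the ranges were 2.11 to 2.90 and 2.12 to 4.95. This scale was chosen after the values were seen, and no test was run on it.

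DHT-treated orchiectomized mice were also compared with controls. Here 24 of 28 Hox genes were higher, the median log2 fold change was 0.27 against a median of 0.00 over all genes (-0.0029 before rounding), and no Hox gene was called by edgeR or by DESeq2. Of all genes tested, 3.53% were called in either direction. An unadjusted P value under 0.05 was met by 6 Hox genes, all higher with DHT, and by 1671 of the 14121 genes tested, 750 of them higher. An alternative test (limma voom with quality weights) called 2 Hox genes, Hoxa7 and Hoxc6, with 7.02% of all genes called by that test. Leaving out orchiectomized replicate 2 gave 1 call by edgeR, Hoxa7 (0.55 ± 0.19, adjusted P = 0.208). Hoxc6 differed by 0.51 ± 0.20 (adjusted P = 0.355) and Hoxa7 by 0.55 ± 0.23 (adjusted P = 0.378). Hoxc5 did not differ beyond its spread, at 0.01 ± 0.35. Markers of other cell types differed in this comparison as well: 4 of 7 endothelial, 3 of 7 fibroblast and 3 of 5 mesothelium markers were called lower with DHT, with median log2 fold changes of -0.47, -0.51 and -2.29. Dio2 of brown fat and Lrp2 of kidney were called lower too, and Myh2 of skeletal muscle was called higher. None of the 8 smooth muscle markers was called by edgeR (3 had an unadjusted P value under 0.05), and their median was 0.41. In the fit without orchiectomized replicate 2, 3 smooth muscle markers (Smtn, Lmod1 and Des) were called higher and all 5 mesothelium markers lower. Over all genes, 2.01% were called lower. The part of these markers in the Hox values was not tested. The 3 comparisons share libraries pairwise, so a low value in the orchiectomized group lowers one difference and raises another.

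**Figure D5:**
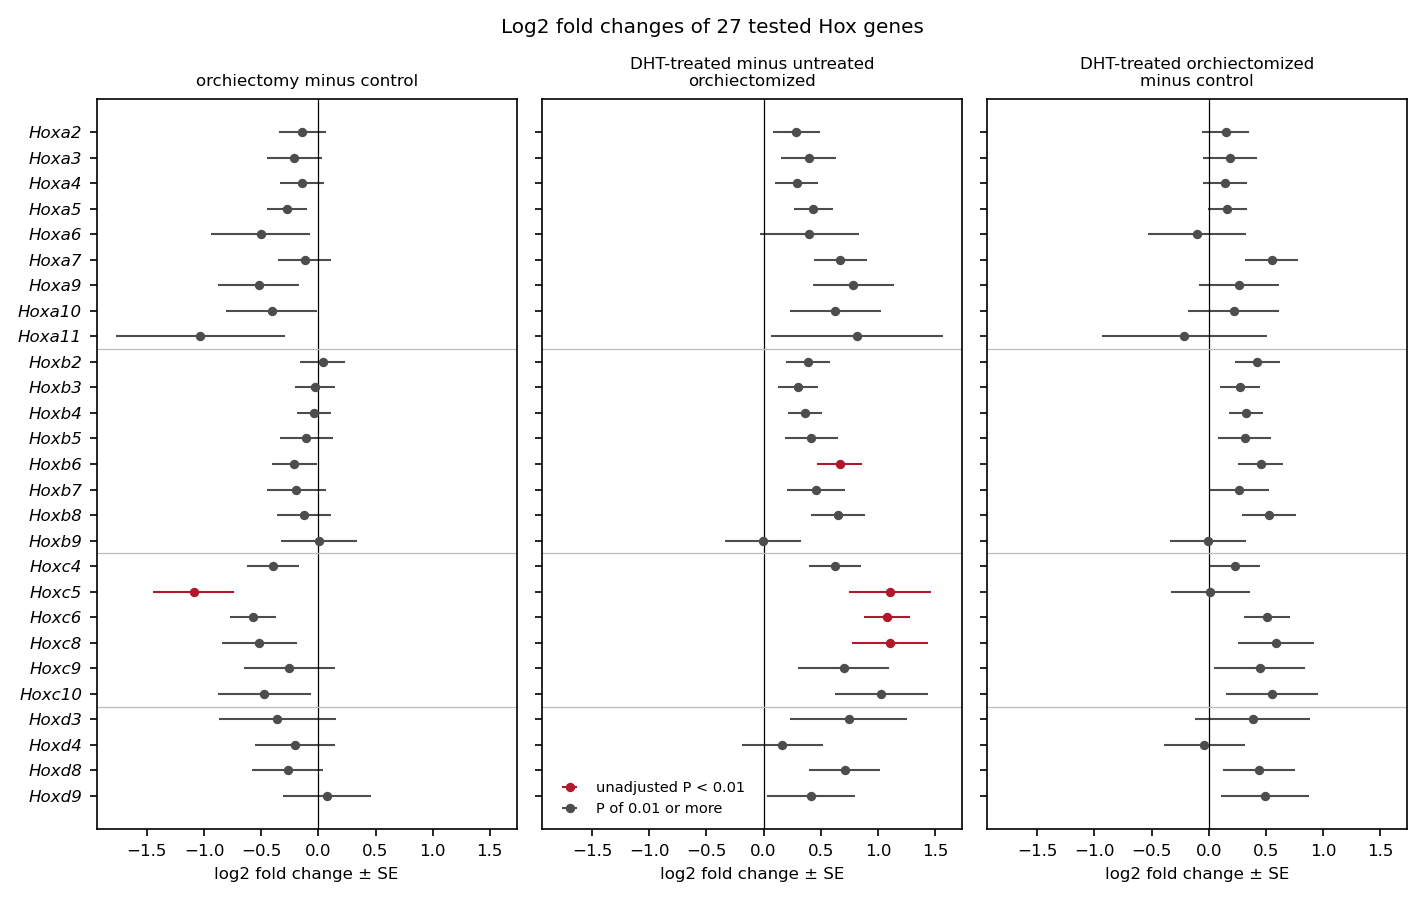
Log2 fold change with its SE (x axis) for each of 27 tested Hox genes (rows, ordered by cluster and paralog number) in the 3 comparisons. Red marks an unadjusted P value under 0.01. Most genes lie left of 0 in the first panel and right of 0 in the second and the last, and Hoxc6, Hoxc8, Hoxc5 and Hoxb6 are red in the second.

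The Hox clusters also carry microRNA genes, short RNAs that pair with messenger RNAs through their seed (bases 2 to 8) and lower their output. Mir196b lies within Hoxa9 on the same strand, where 85 bp of their annotated exons overlap, Mir196a-1 in HoxB, Mir196a-2 in HoxC, Mir10a in HoxB and Mir10b in HoxD. They are known to act on Hox genes, so their sequences are shown beside the messages that carry matching sites, with the seed in capitals (RefSeq, GRCm38.p6, 5′ to 3′).
mmu-miR-196a-5p: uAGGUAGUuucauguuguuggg
mmu-miR-196b-5p: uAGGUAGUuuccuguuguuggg
mmu-miR-10a-5p: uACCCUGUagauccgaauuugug
mmu-miR-10b-5p: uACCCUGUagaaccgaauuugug

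The complement of the miR-196 seed, ACTACCT, was found on the sense strand of the 3′ UTR in 9 of 39 Hox genes, among them Hoxa7, Hoxb6, Hoxb7 and Hoxc8, and in 6.30% of 20097 genes. That of miR-10, ACAGGGT, was found in 4 Hox genes, among them Hoxa3 and Hoxb3, and in 12.9% of genes. Hoxa7 held 4 miR-196 matches and Hoxc8 held 2. The sites of the 2 called genes, Hoxb6 and Hoxc8, and the first of Hoxa7 are printed as the 22 bases that end 1 base after the match, with the match in capitals.
Hoxb6, chr11:96301373-96301394 of GRCm38, plus strand: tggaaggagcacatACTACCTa
Hoxc8, chr15:102992976-102992997, plus strand: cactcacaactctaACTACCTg
Hoxc8, chr15:102993733-102993754, plus strand: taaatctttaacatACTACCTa
Hoxa7, chr6:52215400-52215421, minus strand: ggcacagccaaaatACTACCTa

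The medians of genes with and without an exact match were close. Imperfect sites were not searched, so genes without a match may still hold one, and the part of miR-196 was not tested. The 8 tested Hox genes with a miR-196 match had a median log2 fold change of 0.56 between DHT-treated and untreated orchiectomized mice, and the 20 without had 0.52. Hoxc5 and Hoxc6, both called, have no match in the annotated 3′ UTR. Poly(A) libraries do not measure mature microRNAs, and a match is no evidence of binding.

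Promoters, the 250 bases before the start, were on hand for 22 of the 39 Hox genes. Hoxb6, Hoxc5, Hoxc6 and Hoxc8 were not among them. The half-site of the androgen receptor, AGAACA on either strand, was found in those of Hoxa9 and Hoxa11 and in 14.0% of the 21879 promoters of all genes. The site bound jointly by Hox and Pbx proteins, TGATTNAT, was found in those of Hoxa2 and Hoxd11 and in 2.52% of all promoters. The Hoxa9 sequence is printed since it has more reads than Hoxa11 (its own log2 fold change, DHT-treated minus untreated, was 0.79 ± 0.35, adjusted P = 0.213, not called), with the half-site, here on the opposite strand, in capitals.
Hoxa9, chr6:52227371-52227620 of GRCm38.p6, minus strand: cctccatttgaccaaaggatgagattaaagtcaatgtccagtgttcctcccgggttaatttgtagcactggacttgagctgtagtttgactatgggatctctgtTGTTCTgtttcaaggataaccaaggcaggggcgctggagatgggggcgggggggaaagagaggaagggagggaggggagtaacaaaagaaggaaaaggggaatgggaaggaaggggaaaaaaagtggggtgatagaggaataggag

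Hox proteins bind DNA together with the TALE cofactors of the Pbx, Meis and Pknox families. All 11 TALE genes passed the filter, and none was called by edgeR in any of the 3 comparisons, with 2 under an unadjusted P value of 0.05 in each. Their median log2 fold change was -0.01 between DHT-treated and untreated orchiectomized mice and 0.14 between orchiectomized and control mice. The smallest P value of the list belonged to Tgif2, a TALE repressor, which was 0.61 ± 0.23 higher after orchiectomy (adjusted P = 0.342). Without orchiectomized replicate 2, 1 TALE gene, Pbx2, was called higher with DHT (0.33 ± 0.10, adjusted P = 0.0966). Pbx2, and Pcgf2 and Des among the other lists, were named after their values were seen.

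The chromatin regulators that keep Hox genes on (trithorax group) or off (Polycomb group) were measured as a list of 20. None was called by edgeR between orchiectomized and control mice (2 had an unadjusted P value under 0.05), and 2 Polycomb genes were called between DHT-treated and untreated orchiectomized mice, both lower, a share close to the 7.27% of all genes called lower. Ezh2, the H3K27 methyltransferase, was at 4.52 to 7.96 CPM without DHT and at 3.31 to 4.79 CPM with it (-0.64 ± 0.20, adjusted P = 0.0763). Eed, its partner subunit, was at 29.2 to 36.1 and 19.6 to 27.7 CPM (-0.41 ± 0.12, adjusted P = 0.0592). Without orchiectomized replicate 2 neither was called (-0.56 ± 0.20, adjusted P = 0.146, and -0.36 ± 0.12, adjusted P = 0.134), while Pcgf2, another Polycomb gene, was called higher (0.39 ± 0.11, adjusted P = 0.0592).

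Retinoic acid sets the anterior limits of Hox expression in the embryo. Of 21 listed genes of its pathway and of the Cdx family, 14 were tested. Cyp26b1, which degrades retinoic acid, was at 12.6 to 21.5 CPM in control and 19.9 to 36.9 CPM in orchiectomized mice (0.70 ± 0.20, adjusted P = 0.285). Aldh1a2, which makes it, was at 9.47 to 25.04 CPM without and 2.10 to 7.39 CPM with DHT (-1.77 ± 0.39, adjusted P = 0.0222), and Stra6, the retinol uptake receptor, was also lower with DHT (-1.66 ± 0.45, adjusted P = 0.0496). Aldh1a2 was also called lower in DHT-treated than in control mice (-1.29 ± 0.38, adjusted P = 0.221). Of all genes, 2.08% were called higher after orchiectomy, and 7.27% and 2.01% lower with DHT than in untreated orchiectomized and in control mice. These 4 calls of the retinoic acid list held without orchiectomized replicate 2. Aldh1a2 and Stra6 are known to be expressed in mesothelium, whose markers were at 8.33 to 22.5 CPM with and 42.8 to 647.0 CPM without DHT, or up to 80.9 CPM without orchiectomized replicate 2. The part of the mesothelium in these differences was not tested.

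Of 25 tested transcription factors that mark other regional identities of the aorta and its surroundings, none was called by edgeR between orchiectomized and control mice (5 had an unadjusted P value under 0.05) and 5 were lower with DHT than without, against 7.27% of all genes. These were Wt1 (-2.86 ± 0.53, adjusted P = 0.0117), Gata5 (-3.19 ± 0.75, adjusted P = 0.0283), Tcf21 (-2.83 ± 0.76, adjusted P = 0.0452), Tbx20 (-1.09 ± 0.32, adjusted P = 0.0668) and Gata4 (-2.28 ± 0.77, adjusted P = 0.101), genes of the epicardium, mesothelium or heart. Without orchiectomized replicate 2, the library with the most heart, lung and mesothelium signal, 2 of 25 were called, Wt1 and Gata5, a share close to that of all genes. Against control mice, Wt1 was lower with DHT (-2.25 ± 0.53, adjusted P = 0.0929), and without that library both Wt1 and Gata5 were called. Of the noncoding genes and neighbours of the Hox clusters, 9 of 25 found were tested and none was called by edgeR, with 1, 1 and 0 under an unadjusted P value of 0.05 in the 3 comparisons. They included Hotairm1, a noncoding RNA of HoxA (0.13 ± 0.21 for DHT-treated minus untreated, adjusted P = 0.784) and Skap2, the gene next to HoxA on its 3′ side (-0.28 ± 0.11, adjusted P = 0.167).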

How the data were processed

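The members and all gene lists were chosen with earlier results of these data known. Unnormalized whole-number counts of reads for each gene symbol were deposited for 15 poly(A) RNA libraries, each from 1 whole aorta (5 per group, groups and replicate numbers from the labels). The submitters' processing notes name the build mm10 and the tools STAR, Cufflinks and DESeq2 without roles or versions. The counting program, annotation and strand setting are not given in the sources used here, so genes that overlap an antisense RNA (such as Hoxa3, Hoxa7, Hoxa11, Hoxb2, Hoxb3, Hoxb5, Hoxd3 and Hoxd4) may include its reads.

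Entries for reads without a gene (6.26% to 14.4%) or with several genes (1.34% to 1.97%) were left out. Genes were kept with filterByExpr (minimum count 10, minimum total 15), scaled by TMM and tested with edgeR 4.0.16 (R 4.3.3) in 1 quasi-likelihood model of the 3 groups, 15 libraries, no other covariate. A call was P under 0.01, the threshold of the study. Adjusted P values are Benjamini-Hochberg over 14121 genes. CPM are TMM-scaled, log2 CPM use a prior count of 3, and a printed error of a fold change is an SE. Alternatives were other scaling, filters, samples, DESeq2 1.42.0, limma 3.58.1 voom and leaving out each library.

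Per-kilobase levels used the exons of coding transcripts, and positions, lengths and 3′ UTRs came from GENCODE (GRCm38). Hox genes named with values are those called in any comparison, the 2 with the smallest P value in each, the one with the most reads per cluster and the end genes of each cluster. Genes of other lists are named where called or with the smallest P value of their list. Other members were named as examples after their values were seen. The values of 1 member are not reported here, although it entered the counts over all members. The 15 mice are separate animals, and no 2 libraries of a group agreed within sampling noise (chi-square per gene of 11.9 or more in 30 pairs). At the median depth, 10 reads are 0.906 CPM.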

Additional observations from a re-analysis of the deposited data

Results flagged for a closer look

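Of 57 sets of 5 libraries tested for a sample far from the rest (16 Hox genes and 3 summaries in 3 groups), 1 stood out. Hoxd9 in orchiectomized replicate 1 was at 2.91 CPM, below the other 4 libraries of its group at 3.34 to 3.497 CPM, with a gap of 0.73 of the whole range of the group. The range itself is narrow next to those of the control (1.72 to 5.01 CPM) and DHT-treated mice (1.54 to 6.93 CPM). Chance gives such a gap in about 1 of 20 groups, so that a single one among 57 is not more than chance gives.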

How the results depend on the processing

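The replicate numbers did not pair the mice (median correlation of deviations 0.017 for equal and 0.0266 for other numbers), and the fit with the replicate block gave 1, 4 and 0 Hox genes called, as without it. The number of calls moved as follows. Between orchiectomized and control mice, it was 2 with RLE size factors, with all genes of at least 1 count and with DESeq2, and 0 with voom and at adjusted P under 0.05, against 1. The share of all genes called in these fits was 3.19%, 3.76%, 4.46%, 3.26% and 0%, against 3.22%. With against without DHT in orchiectomized mice, the number was 7 with DESeq2 and with voom, 6 with all genes of at least 1 count and with at least 10 counts in every library, 5 with RLE size factors and 1 at adjusted P under 0.05, against 4. The share of all genes called in either direction was 12.3% with DESeq2, 9.62% with voom, 8.59% and 8.66% with these filters and 9.68% with RLE, against 9.72%. The fit of these groups alone also gave 4, with Hoxa5 in place of Hoxc5. Between DHT-treated and control mice, it was 2 in a fit of these groups alone and with voom, against 0. There the share of all genes called was 4.85% and 7.02%, against 3.53%. Leaving out each library in turn gave 0 to 2, 2 to 7 and 0 to 1 calls. The share of all genes called in these fits was 1.77% to 5.02%, 7.06% to 11.1% and 1.99% to 4.8%. The fewest between DHT-treated and untreated orchiectomized mice came without orchiectomized replicate 4 (Hoxb6 and Hoxc6, with 7.55% of all genes). The most came without orchiectomized replicate 1 (7, with 11.1% of all genes), and there were 5 without orchiectomized replicate 2 (8.39% of all genes). Hoxc6 was called between DHT-treated and untreated orchiectomized animals in each of these fits. No alternative turned the direction of the 8 fold changes that were called or had the 2 smallest P values of their comparison. Hoxc5 lost its call against control in 7 of 15 such fits and with voom. The group differences in mean paralog number and in the log2 ratio of groups 9 to 13 over 1 to 8 stayed within 1 SD of their values under all alternatives, though leaving out single libraries took the log2 ratio differences from -0.327 to 0.0776, from -0.17 to 0.25 and from -0.29 to 0.167, and that in mean paralog number between DHT-treated and control mice from -0.00795 to 0.241. Depth limits the 11 untested members, none of which passed 6 reads.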

Other observations

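The joint variation of posterior genes between mice was noticed in these data and is given as a description, with no P value. CPM of genes 9 to 13, and of genes 1 to 8, were summed per cluster, and their log2 values were centred on the group mean over 15 libraries. For genes 9 to 13, HoxA and HoxC had a Pearson's r of 0.913 and a Spearman's rho of 0.846, and r was 0.915 without the 2 libraries farthest from the median on the HoxA axis. HoxC and HoxD had an r of 0.874 and a rho of 0.850, and r was 0.788 without the 2 farthest libraries. HoxA and HoxD had an r of 0.671 and a rho of 0.618, and r was 0.768 without the 2 farthest libraries. HoxB, whose posterior reads come almost entirely from Hoxb9, had an r of 0.670 with HoxA (rho 0.636), 0.513 with HoxC (rho 0.389) and 0.150 with HoxD (rho 0.150). Without the 2 farthest libraries, these r were 0.570, 0.184 and -0.0455.

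For genes 1 to 8 the 6 pairs gave r from -0.408 (HoxB with HoxD) to 0.616 (HoxA with HoxB). Without the 2 farthest libraries, r of these pairs was -0.193 and 0.24. All 12 pairs share libraries and scaling, and whether the relation differs between the anterior and the posterior genes was not tested. All libraries came from whole aortas, and no value recorded here says which stretch of the vessel contributed to each.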
